A study of Danio rerio with 6 samples.

Results

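Translation initiation and elongation factors are the proteins that load the initiator tRNA onto the ribosome, find the start codon, join the ribosomal subunits and then move the ribosome along the mRNA. The genes described here are those whose symbol in the deposited tables starts with *eif1* to *eif6*, *eef1* or *eef2*, without the eIF2α kinase genes (*eif2ak*), and whose mean over the libraries was at least 1 CPM (each library's reads on genes scaled to the same total). Of 76 genes whose symbol fitted, 73 passed this minimum, out of 19194 genes of any kind that did so. The 3 left out were *eif4e1b* at a mean of 0.0281 CPM, *eef1a2* at 0.0315 CPM and *eif3bb* at 0.667 CPM, and the lowest 2 kept were *eef1a1b* at 1.16 CPM and *eef2a.2* at 2.49 CPM. A few related genes carry other symbols and were not counted as members, among them *EIF1B* in capitals at a mean of 91.1 CPM. The members fell into 10 roles, with 6 genes for start codon selection and subunit joining, 6 for eIF2 and the other carriers of initiator tRNA, 5 for eIF2B, 16 for eIF3, 18 for eIF4F and its helpers, 5 eIF4E-binding proteins, 3 for eIF5A and eIF6, 8 for eEF1, 5 for eEF2 and its kinase, and 1 methyltransferase gene.

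The study sequenced RNA from whole zebrafish embryos at 36 hpf, with 1 library for each of 6 conditions, to compare the amino acid response with the unfolded protein response. The *tars*-/- embryos are homozygous for a nonsense mutation, found in a chemical (ENU) mutagenesis screen, in the gene for threonyl-tRNA synthetase, the enzyme that charges tRNA with threonine. Siblings came from the same litters and are labelled wild type. The mutant line was kept as heterozygotes, so siblings may include heterozygous carriers, whose share is not given. Embryos of each genotype were left uninjected, or received at the one-cell stage a morpholino, an antisense oligonucleotide that lowers a protein, against *gcn2* (*gcn2* MO) or *perk* (*perk* MO). All 6 groups were raised in 1-phenyl-2-thiourea, which blocks pigment. The controls received no control morpholino, so injection itself and the loss of the kinase cannot be told apart, and the number of embryos per library is not given in the sources used here.

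Translation starts when eIF2, bound to GTP, brings the initiator methionyl-tRNA to the small ribosomal subunit. eIF2B recharges eIF2 with GTP after each round, and when Gcn2 or Perk phosphorylates the α subunit of eIF2, eIF2B is inhibited and most initiation slows. In elongation, eEF1A delivers each charged tRNA, eEF1B subunits recharge eEF1A with GTP, and eEF2 moves the ribosome by a codon, a step that eEF2 kinase restrains.

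Gene counts summed to between 29949451 and 47516784 reads in a library. *tars* itself lay between 68.1 and 95.9 CPM in the 3 sibling libraries and between 21.3 and 37.3 CPM in the 3 *tars*-/- libraries. Markers of 8 tissues fixed for whole embryos, from neurons to heart, were all detected. Of these, the neuronal marker *elavl3* varied most by ratio, from 603 CPM in uninjected siblings to 240 CPM in *perk* MO siblings. It was also low in *tars*-/- with *gcn2* MO, at 295 CPM. The lens marker *crygm2d1* varied almost as much, from 85.5 CPM in uninjected siblings to 34.8 CPM in *perk* MO *tars*-/-. Across all genes, the closest libraries were *perk* MO siblings and *gcn2* MO *tars*-/-, which differ in genotype and in morpholino and had 759 genes (3.95%) at least 1.5-fold apart. The next closest were *gcn2* MO siblings and *perk* MO *tars*-/-, with 1268 genes (6.61%), and the farthest were uninjected and *perk* MO siblings, with 4581 genes (23.9%). The injected libraries were thus closest across morpholino labels. Groups are used here as labelled. Whether the morpholino labels of 1 genotype were exchanged was not tested. If they were, the morpholino ratios within that genotype would name the wrong morpholino. The genotype ratios under *gcn2* MO and *perk* MO would then pair unlike injections. The uninjected comparison, the ratios within the other genotype and the separation of the 3 *tars*-/- from the 3 sibling libraries would stand.

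Each difference between 2 libraries is given as a ratio of CPM with an exact 95% Clopper-Pearson interval, which covers counting error only. With 1 library per condition, none of these differences could be set beside a spread among like embryos. A gene was counted as higher or lower in a comparison when its log2 ratio, after adding 0.5 CPM to each value, was at least 1.5-fold. In whole embryos, fewer cells of a type and less RNA per cell cannot be told apart.

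Together the members took 2.55%, 2.75% and 3.15% of reads in uninjected, *gcn2* MO and *perk* MO siblings, and 2.82%, 2.99% and 2.79% in the same order in *tars*-/-. *eef1a1l2*, the main eEF1A gene by FPKM, alone took between 1.19% and 1.58% of reads. Per gene length, the mean FPKM (reads scaled by gene length and library total) was 4191 for *eef1a1l2*, 1085 for *eef2b*, 626 for *eef1g*, 385 for *eif5a* and 241 for *eif1b*, the highest 3 being elongation factor genes. *eif2s2* had the highest FPKM of any eIF2 gene, at 189, while each eIF2B gene had a mean FPKM between 6.92 (*eif2b1*) and 43.0 (*eif2b2*). *eef1a1b* was lowest, at 0.462 FPKM.

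**Figure D1:**
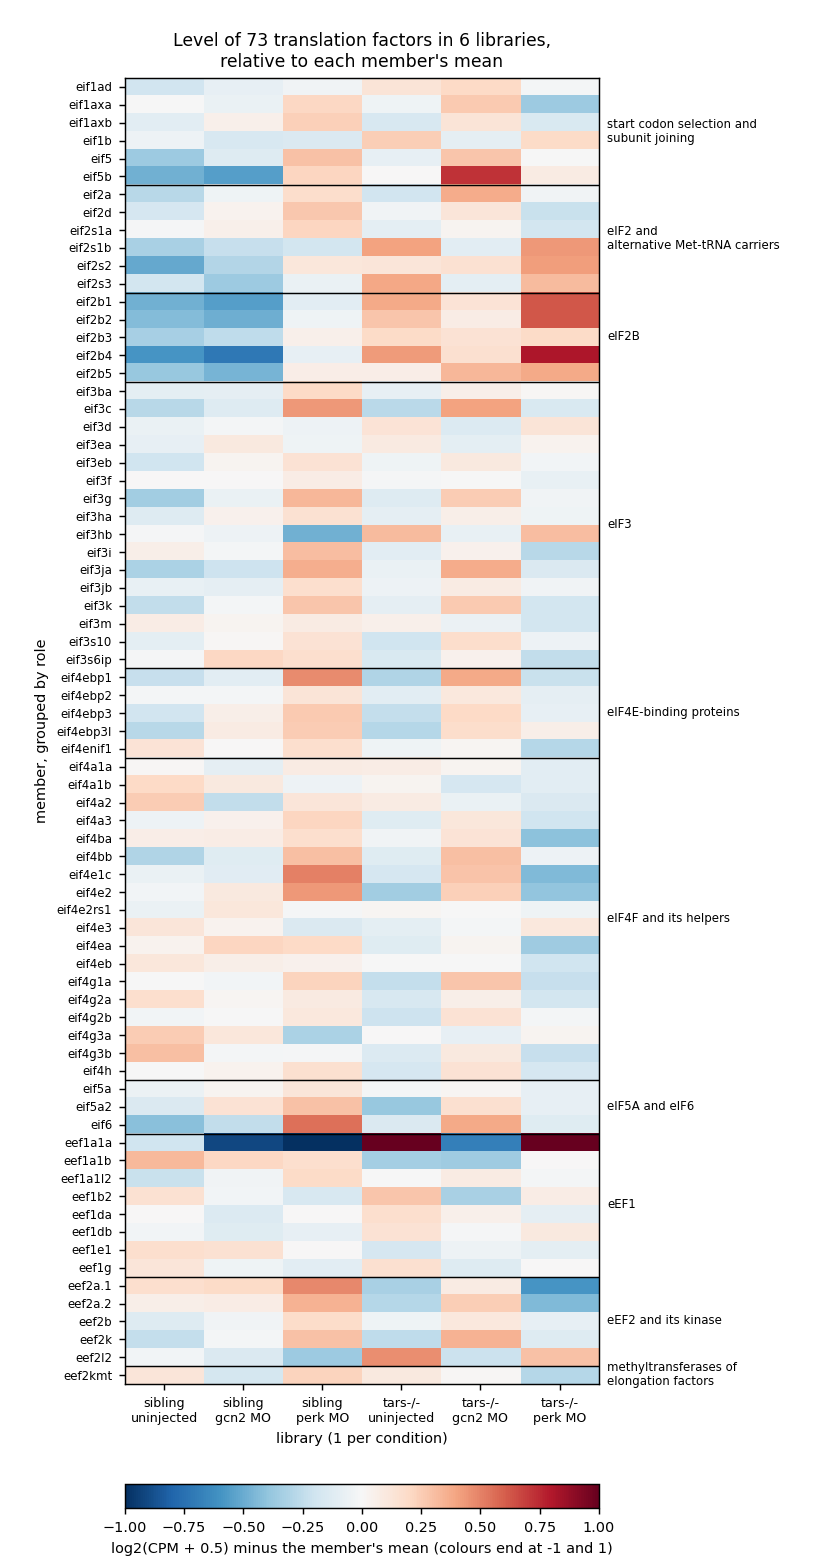
Heat map of 73 translation factor genes (rows, grouped by role) in the 6 libraries (columns, 1 per condition). Colour is log2(CPM + 0.5) minus the mean of that gene over the libraries, with the scale ending at -1 and 1. The eIF2B rows are above their mean in all 3 *tars*-/- libraries, and *eef1a1a* is high in uninjected and *perk* MO *tars*-/- only. Many eIF3 and 4E-BP rows, and *eif4e1c* and *eif4e2*, are high in *perk* MO siblings and *gcn2* MO *tars*-/-.

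The 5 subunit genes of eIF2B were all higher in *tars*-/- than in siblings in each of the 3 injection states. How many of all genes were higher in each state, without a minimum fold, was not counted. *eif2b4*, which codes for the δ subunit, was at 46.1, 42.3 and 65.9 CPM in uninjected, *gcn2* MO and *perk* MO siblings, and at 93.6, 78.0 and 122 CPM in the matching *tars*-/- libraries. Every *tars*-/- library was above every sibling library, with the narrowest gap between *gcn2* MO *tars*-/- and *perk* MO siblings. The ratio of *tars*-/- to siblings was 2.03 (1.92 to 2.15) in uninjected embryos, 1.85 (1.73 to 1.97) under *gcn2* MO and 1.86 (1.76 to 1.95) under *perk* MO. *eif2b1*, coding for the α subunit, was at 24.9, 23.6 and 32.5 CPM in the siblings, against 45.4, 38.5 and 53.8 CPM in *tars*-/-, again without overlap. Its genotype ratios were 1.83 (1.69 to 1.98), 1.63 (1.49 to 1.78) and 1.66 (1.54 to 1.79).

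The β subunit gene *eif2b2* followed, at 40.2, 38.6 and 52.8 CPM in siblings, against 66.0, 57.2 and 83.9 CPM in *tars*-/-. Its ratios were 1.64 (1.54 to 1.75), 1.48 (1.38 to 1.59) and 1.59 (1.5 to 1.68). These 3 genes code for the regulatory part of eIF2B, which senses phosphorylated eIF2. The γ and ε subunits form the catalytic part. *eif2b3* (γ) was at 21.7, 23.0 and 28.5 CPM in siblings, against 31.4, 30.3 and 31.4 CPM in *tars*-/-, a narrow separation in which the ratio was 1.45 (1.32 to 1.58) without injection and 1.1 (1.01 to 1.20) with *perk* MO. *eif2b5* (ε) was at 22.7, 21.3 and 31.1 CPM in siblings, against 31.1, 37.5 and 38.6 CPM in *tars*-/-, where the uninjected *tars*-/- library met the *perk* MO sibling library. The log2 ratios of the 3 regulatory genes ran from 0.71 to 1.01 without injection and from 0.66 to 0.89 with *perk* MO, and those of the 2 catalytic genes from 0.45 to 0.52 and from 0.14 to 0.31. With *gcn2* MO the ranges overlapped, at 0.56 to 0.88 and 0.39 to 0.80. There the catalytic *eif2b5*, at 0.80, was above the regulatory *eif2b1* and *eif2b2*, at 0.69 and 0.56.

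The same genes also differed between libraries of 1 genotype. In siblings, all 5 eIF2B genes were higher with *perk* MO than without. Their median log2 ratio was 0.39, and the 5 genes ran from 0.38 to 0.51. With *gcn2* MO 4 of 5 were lower, with a median of -0.07. In *tars*-/-, 4 of 5 were lower with *gcn2* MO, by a median log2 ratio of -0.21, and 5 of 5 were above 0 with *perk* MO (4 of 5 with TMM scaling), by a median of 0.31. None of these within-genotype differences reached 1.5-fold. The morpholino comparisons within a genotype share its uninjected library, so they are not separate evidence. FPKM summed over the 5 genes was 1.62 times as high in *tars*-/- as in siblings without injection, 1.54 with *gcn2* MO and 1.48 with *perk* MO. Reads of overlapping genes cannot be told apart with this library kit, which does not mark strand, and in the RefSeq annotation *eif2b1* overlaps *mob1a* and *vps33a*, *eif2b2* overlaps *zc3h14* and *eif2b4* overlaps *atraid*. These neighbours had uninjected genotype ratios between 0.826 (*atraid*) and 1.18 (*mob1a*). Under *gcn2* MO they ran from 0.827 (*atraid*) to 1.14 (*zc3h14*), and under *perk* MO from 0.977 (*vps33a*) to 1.35 (*mob1a*). All were below those of the eIF2B genes they overlap in the same injection state. *eif2b3* overlaps *LOC141378375*, for which no ratio was taken. In the RefSeq annotation 27 of the 73 members overlap another gene, among them *eef1b2* and *eef1db*. The part of shared reads in the counts of eIF2B or other members was not tested.

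**Figure D2:**
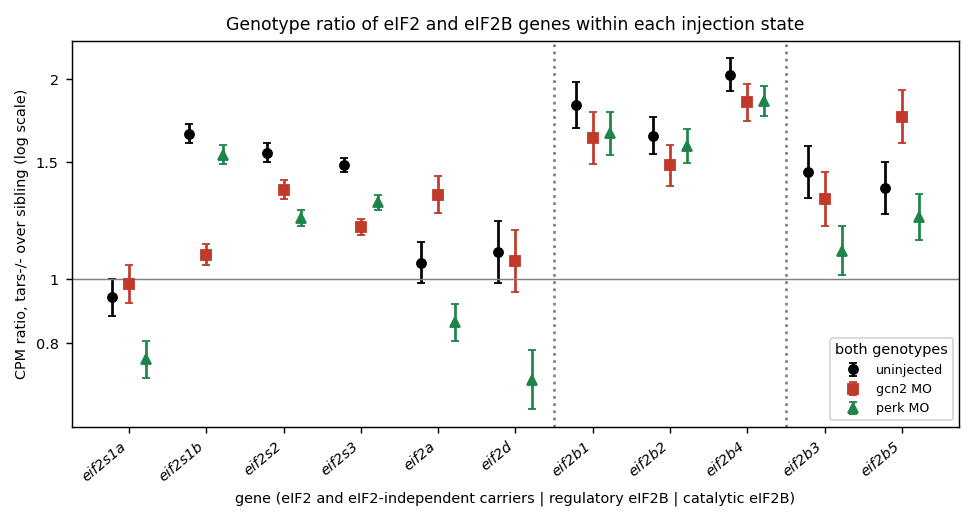
CPM ratio of *tars*-/- to sibling (log axis) for 6 genes of eIF2 and alternative tRNA carriers and 5 eIF2B genes, within uninjected (black circles), *gcn2* MO (red squares) and *perk* MO (green triangles) embryos. Bars are exact 95% intervals for counting error, each point compares 2 libraries, and every eIF2B point lies above 1 while *eif2s1b* is at 1.66, 1.09 and 1.54.

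Of eIF2 itself, 3 genes were higher in *tars*-/- in all 3 injection states and 1 was not. No minimum fold was set for this count, and it was not made for all genes. *eif2s1b*, an eIF2α gene, was at 153, 163 and 168 CPM in siblings, against 253, 178 and 259 CPM in uninjected, *gcn2* MO and *perk* MO *tars*-/-. The *gcn2* MO library was thus the lowest of the *tars*-/- libraries, close above the siblings. The genotype ratio was 1.66 (1.60 to 1.71) without injection, 1.09 (1.05 to 1.13) under *gcn2* MO and 1.54 (1.49 to 1.59) under *perk* MO. Its paralog *eif2s1a* was at 50.3, 52.5 and 58.7 CPM in siblings, against 47.2, 51.6 and 44.4 CPM in *tars*-/-, with ratios of 0.938 (0.879 to 1.00), 0.983 (0.919 to 1.05) and 0.757 (0.71 to 0.807). By FPKM, *eif2s1a* made up 22.5%, 22.1% and 23.5% of eIF2α transcripts in the 3 sibling libraries and 14.1%, 20.4% and 13.2% in *tars*-/-.

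The β subunit gene *eif2s2* was at 167, 195 and 257 CPM in siblings, against 259, 266 and 318 CPM in *tars*-/-. All *tars*-/- values were the higher ones, though *perk* MO siblings and uninjected *tars*-/- nearly met and overlapped with TMM factors. *eif2s3*, for the γ subunit that binds GTP and the tRNA, was at 288, 254 and 312 CPM in siblings, against 427, 304 and 407 CPM in *tars*-/-, where *gcn2* MO *tars*-/- lay below *perk* MO siblings. Without injection the ratios were 1.55 (1.5 to 1.60) for *eif2s2* and 1.49 (1.45 to 1.52) for *eif2s3*. *eif2a* and *eif2d*, which code for proteins that can bring initiator tRNA without eIF2, had uninjected ratios of 1.06 and 1.1. With *gcn2* MO their genotype ratios were 1.34 (1.26 to 1.43) and 1.06 (0.957 to 1.18). With *perk* MO they were 0.861 (0.808 to 0.916) and 0.705 (0.637 to 0.781). Summed FPKM of the 4 eIF2 genes was 1.51 times as high in *tars*-/- without injection, 1.21 with *gcn2* MO and 1.29 with *perk* MO.

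*eef1a1a*, a minor eEF1A gene, had the widest spread of any member. It was at 10.2, 6.02 and 3.21 CPM in uninjected, *gcn2* MO and *perk* MO siblings and at 40.4, 7.12 and 41.5 CPM in *tars*-/-. Uninjected and *perk* MO *tars*-/- stood far above the rest, while *gcn2* MO *tars*-/- was within the sibling range. The genotype ratio was 3.96 (3.54 to 4.43) without injection, 1.18 (0.977 to 1.43) under *gcn2* MO and 13.0 (10.6 to 16.1) under *perk* MO, the last including the low sibling value. In *tars*-/-, the level with *gcn2* MO was 0.176 (0.153 to 0.203) of the uninjected one, and that with *perk* MO was 1.03 (0.961 to 1.1) of it. Within siblings the ratios were 0.591 (0.498 to 0.699) under *gcn2* MO and 0.315 (0.249 to 0.394) under *perk* MO. Because *eef1a1l2* is so abundant, *eef1a1a* made up only 0.369% of eEF1A FPKM in uninjected *tars*-/- and 0.108% in uninjected siblings.

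*eef1a1l2* itself was at 11879, 13528 and 15835 CPM in siblings, against 13776, 14694 and 13678 CPM in *tars*-/-, so it was highest in *perk* MO siblings. *eef1a1b* was the only member called lower in uninjected *tars*-/-, at 0.790 against 1.54 CPM, a ratio of 0.512 (0.315 to 0.813) from 28 and 61 reads. Of the eEF1B genes, *eef1b2* was at 465, 411 and 374 CPM in siblings, against 505, 334 and 440 CPM in *tars*-/-. Its ratio for *gcn2* MO in *tars*-/- was 0.662 (0.646 to 0.678). The scaffold gene *eef1g* was at 1030, 923 and 879 CPM in siblings, against 1060, 866 and 949 CPM in *tars*-/-. Both genes were thus lower in each injected library than in the uninjected library of the same genotype. For *gcn2* MO in *tars*-/-, *eef1da* went from 166 to 154 CPM and *eef1db* from 165 to 148 CPM. *eef1e1*, whose product also belongs to the multi-synthetase complex, was at 26.1, 25.8 and 23.2 CPM in siblings, against 20.5, 22.3 and 21.6 CPM in *tars*-/-, lower in every *tars*-/- library but by less than 1.5-fold.

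Among eEF2 genes, the dominant *eef2b* varied little, from 3200 to 3955 CPM. *eef2l2* was at 171, 158 and 135 CPM in siblings, against 241, 150 and 213 CPM in *tars*-/-. It shared with *eef1a1a* and *eif2s1b* high values in uninjected and *perk* MO *tars*-/- and a low one in *gcn2* MO *tars*-/-. The genotype ratio was 1.41 (1.37 to 1.46), 0.953 (0.917 to 0.991) and 1.58 (1.52 to 1.64) in the 3 injection states, and *gcn2* MO against no injection in *tars*-/- gave 0.624 (0.602 to 0.646). *eef2a.1* went the other way, at 36.8, 37.5 and 45.8 CPM in siblings, against 26.0, 34.6 and 21.6 CPM in *tars*-/-, with ratios of 0.706 (0.65 to 0.768), 0.923 (0.851 to 1.00) and 0.470 (0.433 to 0.510). *eef2k*, for the kinase that inhibits eEF2, was at 79.2, 92.1 and 114 CPM in siblings, against 78.0, 119 and 85.1 CPM in *tars*-/-, highest in *gcn2* MO *tars*-/- and *perk* MO siblings. The methyltransferase gene *eef2kmt* stayed between 3.03 and 4.51 CPM.

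**Figure D3:**
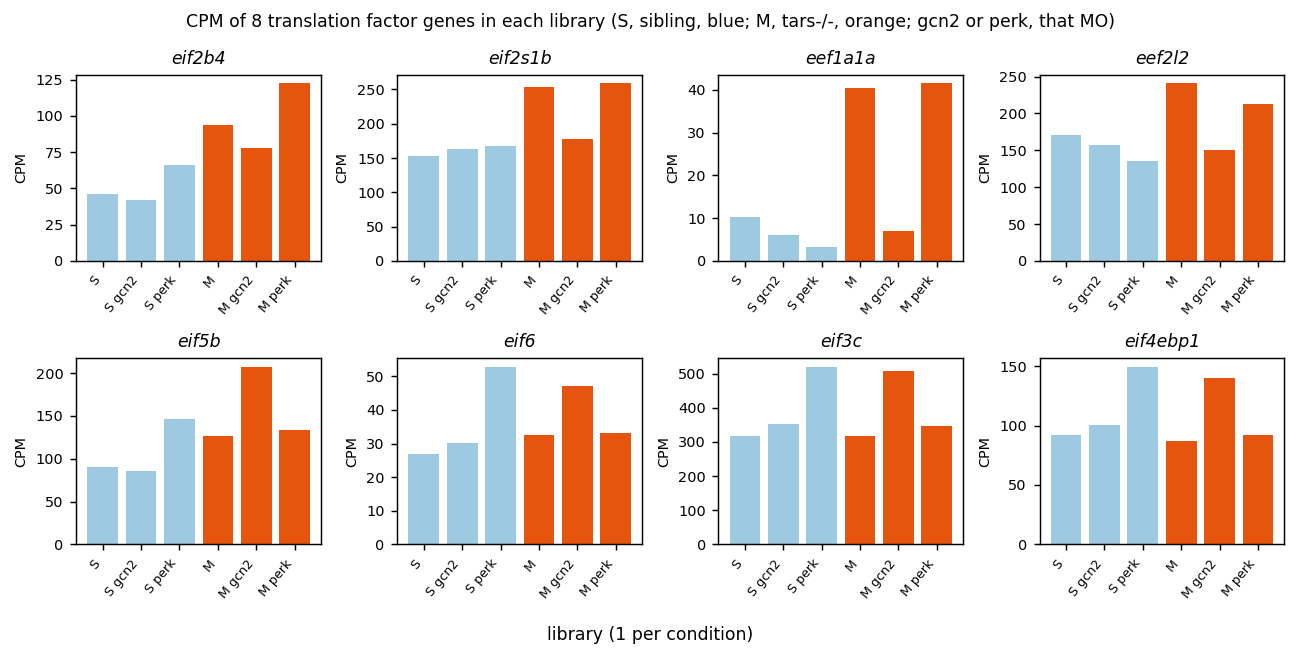
CPM of 8 genes in each library (bars, 1 library each, axes from 0; siblings blue, *tars*-/- orange). In the upper row, *eif2b4* is above all siblings in every *tars*-/- library, and *eif2s1b*, *eef1a1a* and *eef2l2* are high in *tars*-/- without *gcn2* MO. In the lower row, *eif5b*, *eif6*, *eif3c* and *eif4ebp1* are highest in *perk* MO siblings and *gcn2* MO *tars*-/-.

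A different set of members was highest in *perk* MO siblings and *gcn2* MO *tars*-/-, the libraries with the lowest *elavl3* and the closest to each other over all genes. *eif5b*, for the GTPase that joins the ribosomal subunits, was at 89.8, 85.4 and 146 CPM in siblings, against 126, 207 and 133 CPM in *tars*-/-. With *gcn2* MO it was 2.43 times as high in *tars*-/- as in siblings (2.33 to 2.54), its largest ratio. It was 1.65 times as high with *gcn2* MO as without in *tars*-/- (1.58 to 1.71), and 1.63 times with *perk* MO in siblings (1.55 to 1.7). *eif6*, which keeps free large subunits from joining too early, was at 26.9, 30.2 and 52.9 CPM in siblings, against 32.4, 47.0 and 33.1 CPM in *tars*-/-. In siblings *perk* MO gave a ratio of 1.97 (1.82 to 2.13), the largest of any member in that comparison. *eif5*, for the protein that makes eIF2 hydrolyse its GTP at the start codon, was at 192, 226 and 303 CPM in siblings, against 234, 301 and 247 CPM in *tars*-/-. *eif5a2*, the less abundant of the genes for eIF5A, which helps the ribosome past difficult peptide bonds, was at 449, 549 and 608 CPM in siblings, against 382, 554 and 470 CPM in *tars*-/-, lowest in uninjected *tars*-/-. *eif1b*, of the family that guards start codon choice, was higher in *tars*-/- by ratios of 1.23, 1.05 and 1.26 in uninjected, *gcn2* MO and *perk* MO embryos, below 1.5-fold each time.

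eIF3 is the large scaffold that binds the small ribosomal subunit. Most of its 16 genes varied little, and between uninjected genotypes 0 were 1.5-fold apart. *eif3c*, a core subunit gene, had the widest CPM range, at 317, 352 and 520 CPM in siblings, against 319, 509 and 346 CPM in *tars*-/-. Its ratio was 1.64 (1.60 to 1.68) for *perk* MO in siblings and 1.60 (1.56 to 1.64) for *gcn2* MO in *tars*-/-. *eif3g* and *eif3ja* were also highest in those libraries, with *perk* MO ratios in siblings of 1.60 and 1.61. *eif3hb*, a low paralog at 2.87 to 5.36 CPM, was instead lowest in *perk* MO siblings, with a genotype ratio of 1.86 (1.45 to 2.41) under *perk* MO. The part of cell makeup in these differences was not tested.

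eIF4E binds the mRNA cap, eIF4G and eIF4A join it to form eIF4F, and the 4E-BPs block that step. The 5 genes for eIF4E-binding proteins are the *eif4ebp* genes, for the 4E-BPs, and *eif4enif1*. Between uninjected genotypes 3 of 18 eIF4F genes and 0 of these 5 were above 0. With edgeR's TMM factors the counts were 6 and 4. The median of the 5 turned from -0.07 to 0.04, and that of the eIF4F genes stayed below 0, at -0.17 and -0.05. *eif4ebp1* was at 91.8, 100 and 149 CPM in siblings, against 87.2, 140 and 92.3 CPM in *tars*-/-. The ratio was 1.63 (1.56 to 1.7) for *perk* MO in siblings, 1.60 (1.53 to 1.68) for *gcn2* MO in *tars*-/- and 0.618 (0.593 to 0.644) for genotype with *perk* MO. All 5 genes for eIF4E-binding proteins were above 0 for *perk* MO in siblings, with a median log2 ratio of 0.45. They were also above 0 for *gcn2* MO in *tars*-/-, with a median of 0.44 (4 of 5 with TMM). In both comparisons *eif4enif1* was the lowest of them, at 0.03 and 0.06. The FPKM sum of the *eif4ebp* genes, without *eif4enif1*, was 153, 165 and 208 in siblings and 145, 199 and 156 in *tars*-/-. The cap-binding genes with the widest spread were *eif4e1c*, at 60.4, 58.3 and 89.9 CPM in siblings, against 56.0, 76.9 and 46.3 CPM in *tars*-/-, and *eif4e2*, at 18.7, 20.4 and 25.9 CPM and 14.8, 22.4 and 14.4 CPM. With *perk* MO their genotype ratios were 0.515 (0.487 to 0.545) and 0.555 (0.5 to 0.616). *eif4ea* and *eif4eb* were lower in each *tars*-/- library than in each sibling library, with uninjected ratios of 0.892 and 0.921, but with TMM factors the genotypes overlapped for both genes. The helicase eIF4A and the scaffold eIF4G varied less. FPKM summed over *eif4a1a*, *eif4a1b* and *eif4a2* lay between 229 and 264. Summed over *eif4g1a*, *eif4g3a* and *eif4g3b* it lay between 52.6 and 69.4. These sums leave out *eif4a3*, *eif4g2a* and *eif4g2b*, with mean FPKM of 61.2, 57.0 and 61.9.

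**Figure D4:**
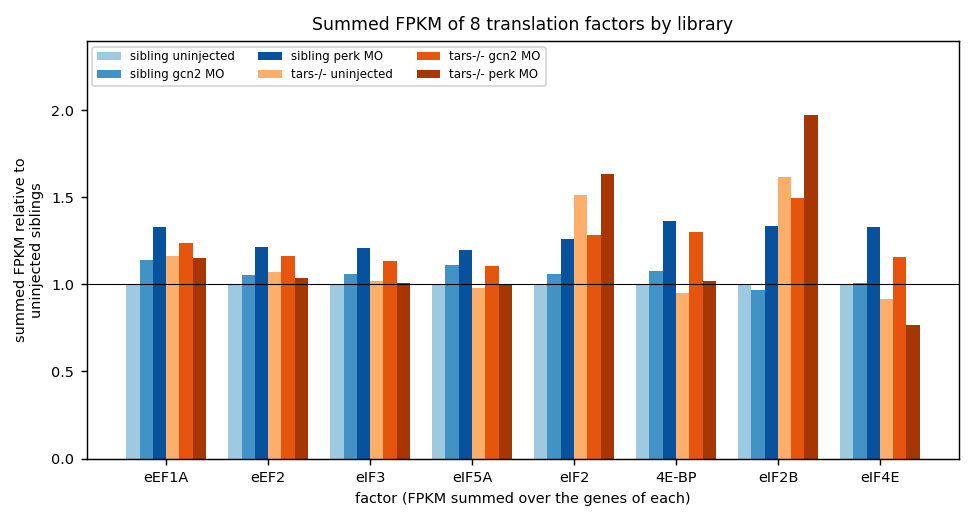
FPKM summed over the genes of 8 factors in each library, relative to uninjected siblings (bars, 1 library each, axis from 0; siblings blue, *tars*-/- orange). The sums of eIF2 and eIF2B reach 1.51 and 1.62 times in uninjected *tars*-/- against uninjected siblings, the sum of eIF3 1.02 times and that of 4E-BP 0.953 times.

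In the uninjected embryos, 6 of 73 members (8.22%) were at least 1.5-fold higher in *tars*-/-, namely *eef1a1a*, *eif2b4*, *eif2b1*, *eif2s1b*, *eif2b2* and *eif2s2*, and 1 (1.37%) was lower, against 2.89% higher and 5.52% lower of all genes. Total scaling set the median log2 ratio of all genes at -0.11 there. With TMM factors that median was 0.001, 10 members were higher and 0 lower, and 4.13% and 3.12% of all genes were. The median member was at 0.01 with total scaling and 0.13 with TMM. With *gcn2* MO in both genotypes 5 members (6.85%) were higher and 0 lower, against 7.66% and 6.2% of all genes, so the share of higher members was near the background. The 5 were *eif5b*, *eif2b4*, *eif2b5*, *eif2b1* and *eif6*. With *perk* MO in both genotypes 7 members (9.59%) were higher and 7 lower, against 11.3% and 8.12% of all genes, and the median member was at -0.21 against 0.003 for all genes. Only 20 of 73 members were above 0 there.

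With *gcn2* MO in *tars*-/- 4 members (*eif5b*, *eif4ebp1*, *eif3c* and *eef2k*) were higher and 3 (*eef1a1a*, *eef2l2* and *eef1b2*) lower, against 12.9% and 8.21% of all genes, shares of 5.48% and 4.11%. With TMM the counts were 1 and 5, adding *eif2s1b* and *eif2s3* to the lower ones, and 9.54% and 10.7% of all genes. With *perk* MO in *tars*-/- 0 members passed in either direction, against 5.45% and 2.86% of all genes, and the largest log2 ratio in either direction was 0.38. With *gcn2* MO in siblings 0 were higher and 1 (*eef1a1a*) lower, against 3.8% and 6.52%. With *perk* MO in siblings 9 (12.3%) were higher and 1 lower, against 9.08% and 14.8%. The median member was at a log2 ratio of 0.22 and that of all genes at -0.04, and 57 of 73 members were above 0. This comparison and that of genotype with *perk* MO share the *perk* MO sibling library, so they are not separate evidence. *Perk* MO siblings held the highest value of 33 of the 73 members, a count that was not made for all genes.

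**Figure D5:**
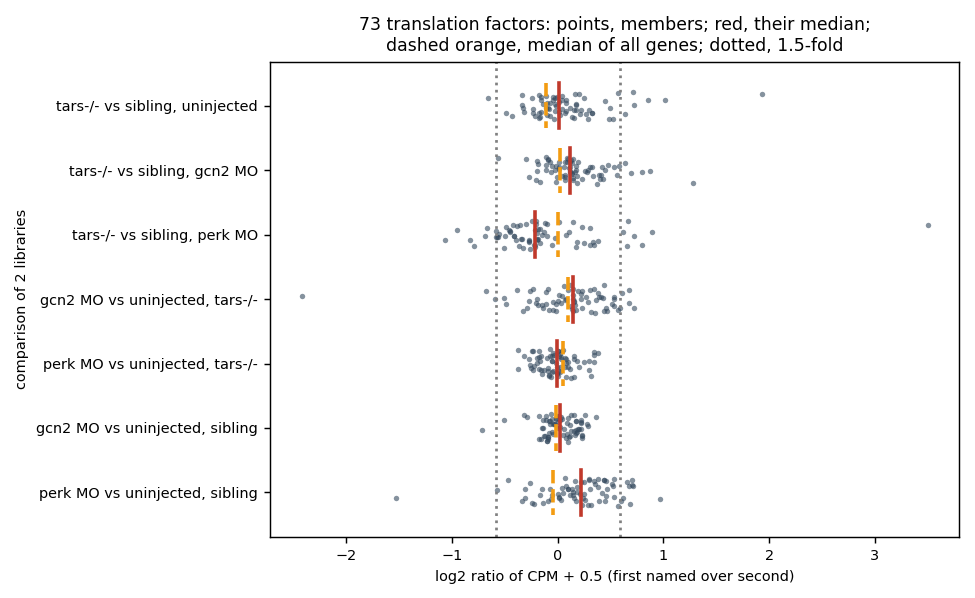
Log2 ratio of CPM + 0.5 of 73 members (points, spread vertically for sight) in 7 comparisons of 2 libraries, with the members' median (red), the median of all 19194 genes (dashed orange) and the 1.5-fold lines (dotted). The members' median is 0.22 for *perk* MO in siblings and -0.21 for genotype with *perk* MO, and no point passes 1.5-fold for *perk* MO in *tars*-/-. Both medians draw on the same *perk* MO sibling library.

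Taking the injection states as 3 blocks gave the only comparison with more than 1 library on each side. All 3 *tars*-/- libraries were above all 3 sibling libraries for 8 members (11.0%), against 3.61% of all genes: *eif2b1*, *eif2b2*, *eif2b3*, *eif2b4*, *eif2s1b*, *eif2s2*, *eef1db* and *eif1ad*. They were below for 6 members (8.22%), against 4.65%: *eef1a1b*, *eef1e1*, *eef2a.1*, *eif3f*, *eif4ea* and *eif4eb*. With TMM factors, an alternative chosen after seeing the data, 8 members were above, with *eif2b5* in place of *eif2s2*, and 3 were below (*eef1a1b*, *eef1e1* and *eef2a.1*), against 4.27% and 3.5% of all genes. *eif2b1* and *eif2b4* were the members at least 1.5-fold higher in every pair, as were 0.636% of all genes, and 0 members were lower in every pair, as were 0.0625%.

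With edgeR's quasi-likelihood test 0 of 19194 genes were below 0.05 after Benjamini-Hochberg adjustment. At an unadjusted p under 0.05 there were 669 genes (3.49%) and 10 members, the 5 eIF2B genes, *eif2s1b*, *eif2s2*, *eif2s3* and *eef1a1a* higher and *eef2a.1* lower. The log2 fold change was 0.97 ± 0.13 (SE, 3 libraries per genotype, edgeR adjusted p = 0.232) for *eif2b4* and 0.80 ± 0.14 (edgeR adjusted p = 0.310) for *eif2b1*. For *eif2b2* it was 0.69 ± 0.13 (edgeR adjusted p = 0.359). *eef1a1a* had the largest estimate, 2.01 ± 0.63, and an edgeR adjusted p of 0.970, and its genotype difference varied with injection, which this fit counts as residual spread. DESeq2 called 191 genes (0.995%), of which 3 were members: *eif2b4* (DESeq2 adjusted p = 5.62e-05), *eif2b1* (0.00569) and *eif2b2* (0.0278). Leaving out the *gcn2* MO pair, edgeR called *eef1a1a*, *eif2b4* and *eif2b1* among 285 genes, without the *perk* MO pair *eif2b4* and *eif2b1* among 133, and without the uninjected pair 0 genes.

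Of 34 listed genes for termination, recycling, ribosome rescue, poly(A) binding and control of these factors, 28 had a mean of at least 1 CPM. *pabpc1l* was below this minimum, and 5 symbols were not found among the genes of the series. This list was chosen with earlier results of these data known, so its shares are not separate support. Between uninjected genotypes 3 of the 28 (10.7%) were higher and 0 lower, against 2.89% and 5.52% of all genes, with a median log2 ratio of 0.10. *gtpbp1*, whose product is a GTPase related to elongation factors that acts in ribosome rescue in mouse, was at 63.9, 59.3 and 77.4 CPM in siblings, against 155, 118 and 257 CPM in *tars*-/-. *mknk2b*, for a kinase that phosphorylates eIF4E, was at 77.0, 57.2 and 68.3 CPM in siblings, against 198, 112 and 278 CPM in *tars*-/-. Every *tars*-/- value of *gtpbp1* and *mknk2b* was above every sibling value, and the ratios without injection were 2.43 and 2.57. For the related genes *gtpbp1l*, *mknk1* and *mknk2a* the genotypes overlapped. *gtpbp1l* was at 10.6, 14.6 and 44.5 CPM in siblings, against 11.3, 39.8 and 17.5 CPM in *tars*-/-. *abcf1*, for an eIF2 partner, was at 160, 175 and 323 CPM in siblings, against 278, 367 and 364 CPM in *tars*-/-, where uninjected *tars*-/- lay below *perk* MO siblings. In the other comparisons of the 28 genes, 6 (21.4%) were higher and 0 lower for genotype with *gcn2* MO, against 7.66% and 6.2% of all genes. For genotype with *perk* MO 3 (10.7%) were higher and 6 (21.4%) lower, against 11.3% and 8.12%. Within *tars*-/- 4 (14.3%) were higher and 3 (10.7%) lower with *gcn2* MO, against 12.9% and 8.21%, and 2 (7.14%) higher and 1 (3.57%) lower with *perk* MO, against 5.45% and 2.86%. Within siblings 1 (3.57%) was higher and 1 lower with *gcn2* MO, against 3.8% and 6.52%, and 4 (14.3%) were higher and 1 (3.57%) lower with *perk* MO, against 9.08% and 14.8%.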

How the data were processed

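RNA from whole zebrafish embryos was measured in 6 libraries, 1 per condition. Per the labels and methods, HISAT2 (version 2.0.5) placed the reads on GRCz10, reads were then counted per gene, and SAMtools (version 1.7) is listed. The authors deposited, for each library, read counts, gene lengths and FPKM, which equalled the count over length and library total to within 5e-06. Counts were scaled by library totals to CPM, and 0.5 CPM was added before log2 ratios. A mean of 1 CPM was the minimum. The genotype effect over 3 injection pairs was tested with edgeR (version 4.0.16, TMM, injection as a block, 2 residual degrees of freedom), with DESeq2 (version 1.42.0) as an alternative. The named genes are all members of eIF2, eIF2B and the 4E-BPs, members 1.5-fold apart between uninjected genotypes, the 3 most extreme each way in the other comparisons, the 10 highest by FPKM, and their paralogs. A few others are named for their role or for a count. Members and lists were chosen with earlier results of these data known. RefSeq (GRCz12tu) served only for names and overlaps, and 73 of 73 members matched.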

Additional observations from a re-analysis of the deposited data

Results flagged for a closer look

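For 9 members the genotype ratio lay on opposite sides of 1 in the *gcn2* MO and the *perk* MO embryos, at least 1.25-fold away each time and with counting intervals off 1. The difference between the injection states was not tested, since each ratio compares 2 libraries. How many of all genes met the same rule was not counted, so the 9 members cannot be set against a background. *eif6* was at 1.56 with *gcn2* MO and 0.627 with *perk* MO. *eif4e1c* was at 1.32 and 0.515, and *eif4ebp1*, which blocks eIF4E, at 1.40 and 0.618. Of eIF3, *eif3c* was at 1.45 and 0.665, *eif3ja* at 1.5 and 0.702 and *eif3g* at 1.25 and 0.778. The remaining members were *eif1axa* (eIF1A, 1.26 and 0.669), *eef2k* (1.29 and 0.743) and *eif4bb* (eIF4B, 1.35 and 0.783). All 9 were above 1 with *gcn2* MO and below 1 with *perk* MO. The rule would also have taken members with the opposite directions. That *perk* MO siblings and *gcn2* MO *tars*-/- were the higher library of each pair restates these ratios and is not a separate result. *elavl3* was lowest in the same libraries, at 240 and 295 CPM. These libraries were also the closest over all genes, across genotype and morpholino labels (759 genes at least 1.5-fold apart). Neither the part of the neuronal share nor an exchange of the morpholino labels within 1 genotype was tested.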

How the results depend on the processing

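With TMM scaling, the uninjected genotype comparison gave 10 members higher and 0 lower, with a median log2 ratio of 0.13. *gcn2* MO in *tars*-/- gave 1 higher and 5 lower. *perk* MO in siblings gave 13 higher and 1 lower, against 10.9% and 12.9% of all genes. The counts of the other comparisons were the same. Ratios near 1 could change side, as for *eif2s1a* between uninjected genotypes, at a log2 ratio of -0.09 and, with TMM, 0.02. The counting intervals do not cover this choice of scaling. A pseudocount of 2 CPM or a minimum of 5 CPM left 0 lower between uninjected genotypes, and a pseudocount of 0.1 CPM gave 1 lower for genotype with *gcn2* MO. With a 2-fold threshold, the counts of members higher and lower were 2 and 0 for genotype without injection, 1 and 0 with *gcn2* MO, 1 and 1 with *perk* MO, 0 and 1 for *gcn2* MO within *tars*-/-, 0 and 0 for *gcn2* MO within siblings and 0 and 1 for *perk* MO within siblings. Shares of all genes were not counted for the other pseudocounts, the 5 CPM minimum or the 2-fold threshold. Those member counts thus cannot be set against a background. With TMM, 3 members rather than 6 were below the siblings in all 3 *tars*-/- libraries, an alternative chosen after seeing the data. DESeq2 called 3 members for the genotype effect where edgeR called 0, and leaving out 1 pair in turn gave 0 to 3. Of the 42 values of named genes past 1.5-fold, 39 stayed past it with TMM, 42 with a pseudocount of 0.1 CPM and 40 with 2 CPM. The 42 leave out *eef2k* and *eif3ja*, which the naming rules did not pick. With TMM, the log2 ratio of *eef2k* for *gcn2* MO in *tars*-/- went from 0.60 to 0.50. That of *eif3ja* for *perk* MO in siblings went from 0.69 to 0.75. With 1 library per condition, the intervals cover counting error only.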
